A study of Mus musculus with 14 samples.

Results

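The 10 disease-associated microglia genes Trem2, Tyrobp, Apoe, Cst7, Lpl, Itgax, Clec7a, Axl, Spp1 and Gpnmb were read in the hippocampus of mice with and without the lpr form of Fas and with intact or kinase-dead Irak4. The members were set by name, and their identifiers matched 10 of the 55536 Ensembl genes of the count table. All 10 were among the 38070 genes with at least 10 counts in total, which were the genes tested. Poly(A) RNA of 14 mice aged 10 months was sequenced, each mouse giving 1 library. The groups were MRL (B6.MRL-Faslpr, n = 4), MRL-IRAK4-KD (the same lpr allele with kinase-dead Irak4, n = 4), C57BL6/J (neither allele, n = 3) and IRAK4-KD (kinase-dead Irak4 alone, n = 3). All strains share the C57BL/6 background, the brains were perfused before dissection, and the Irak4 allele acts in every cell of the body, so that no value here belongs to a single cell type.

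Microglia are the resident macrophages of the brain. Around amyloid plaques, dying neurons and damaged myelin they lower the genes of their resting state and raise a shared set that is called the disease-associated programme. TREM2, a receptor for lipids and for APOE, signals through the adaptor TYROBP (DAP12) and the kinase SYK, and it is needed for the full programme in mouse models of amyloid disease. The programme holds genes of lipid handling (Apoe, Lpl), phagocytic and adhesion receptors (Axl, Clec7a, Itgax), and lysosomal or secreted proteins (Cst7, Spp1, Gpnmb). Several of these genes are also used outside microglia, Apoe most of all in astrocytes and Lpl in neurons.

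The libraries held 279941472 to 572398312 counts. Irak4 had mean levels of 2.38, 2.01, 2.16 and 2.27 CPM (counts per 1000000, after TMM scaling) in MRL, MRL-IRAK4-KD, C57BL6/J and IRAK4-KD, and since the mutation alters the kinase and not the amount of RNA, this level checks no label. The full-length transcript Fas-201 was at 0 counts in each of the 8 lpr libraries and had 345 to 584 counts in 5 of the 6 others. The exception was the library labelled IRAK4-KD replicate 3, with 0 counts of Fas-201 and 514 of Fas-204, the form of the lpr libraries, and it also had the highest summed level of striatum and thalamus markers (591 CPM, others at most 267). MRL-IRAK4-KD replicate 4 stood apart in another way, with choroid plexus markers at 7898 CPM in all (others at most 1901), the lowest library concentration (13.48 nM, others at least 23.49) and a tilt toward short transcripts. MRL replicate 3 had pituitary markers at 87.4 CPM, where the others had at most 6.4. Microglia markers were present throughout: none of the 16 homeostatic genes was at 0 in any library.

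The members also differed between MRL-IRAK4-KD replicate 4 and its group. Its level of Apoe was 2.72 times the mean of the other 3 mice of its group, that of Tyrobp 2.42 times, of Trem2 2.24 times and of Lpl 1.72 times. Axl was at 0.779 times, Cst7 at 0.802 times and Spp1 at 0.67 times that mean, while Clec7a was at 1.02 times. Over all genes with a mean of at least 1 CPM, the median deviation of this library from the mean of the other 13 was 0.85 on the log2 scale for transcripts of up to 1000 bases and -0.489 for those over 4000 bases. The main transcripts of Tyrobp (564 bases), Trem2 (1088) and Apoe (1408) are short and that of Axl (4265) is long, but the long transcripts of Lpl (4115), Itgax (4046) and Gpnmb (3701) were higher in this library and the short ones of Spp1 (1410) and Cst7 (986) lower, against the trend. The part of transcript length, choroid plexus and RNA amount in these values was not tested, and values without this library are given beside the results that it changed.

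**Figure D1:**
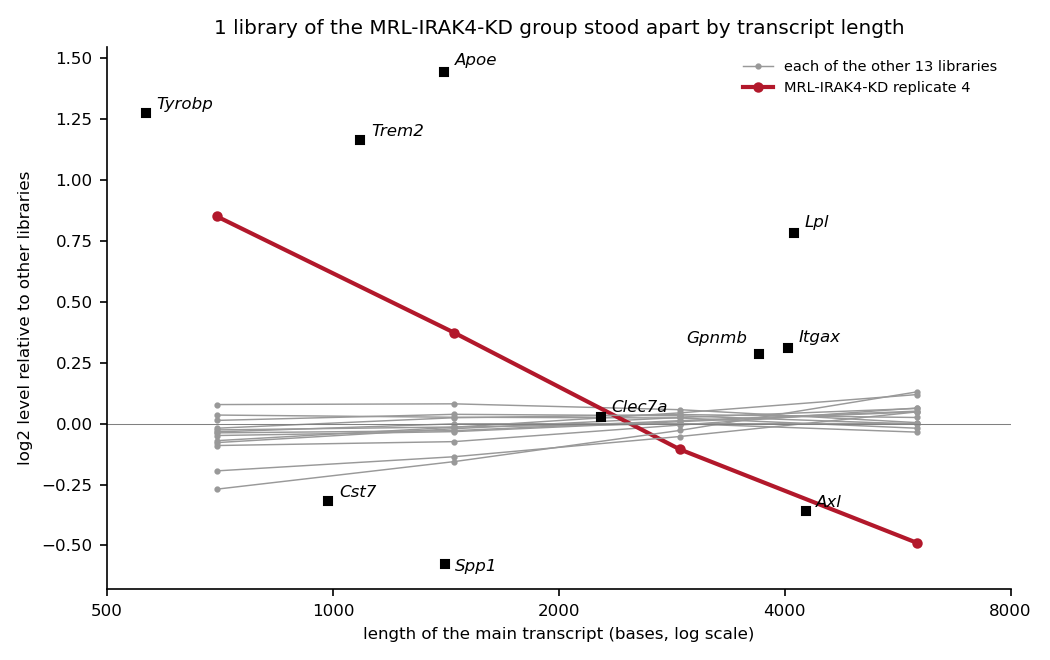
Squares give each member's level in MRL-IRAK4-KD replicate 4 over the mean of the other 3 libraries of its group (log2, vertical axis) against the length of its main transcript (log axis), and lines give, for each library, the median log2 deviation of all genes from the mean of the other 13 libraries in 4 length classes, drawn at a point within each class. The line of MRL-IRAK4-KD replicate 4 runs from 0.85 to -0.489, and Apoe, Tyrobp and Trem2 lie above 1.

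Scaled to the length of the transcripts present, the members differed widely in abundance. Apoe had a mean of 968 CPM per kilobase over the 14 libraries. Tyrobp followed with 20.7 CPM per kilobase, above the resting microglia genes P2ry12 (16.1), Cx3cr1 (13.8) and Tmem119 (10.0), and Lpl (14.5) lay among them. Axl (9.71), Trem2 (8.33) and Spp1 (6.56) were below these 3 genes. Gpnmb had 1.61 CPM per kilobase, and Clec7a (0.281), Cst7 (0.227) and Itgax (0.105), which are near silent in resting microglia and define the late part of the programme, were the lowest. Their levels rested on 60 to 319 counts per library for Itgax, 37 to 179 for Cst7 and 121 to 464 for Clec7a.

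**Figure D2:**
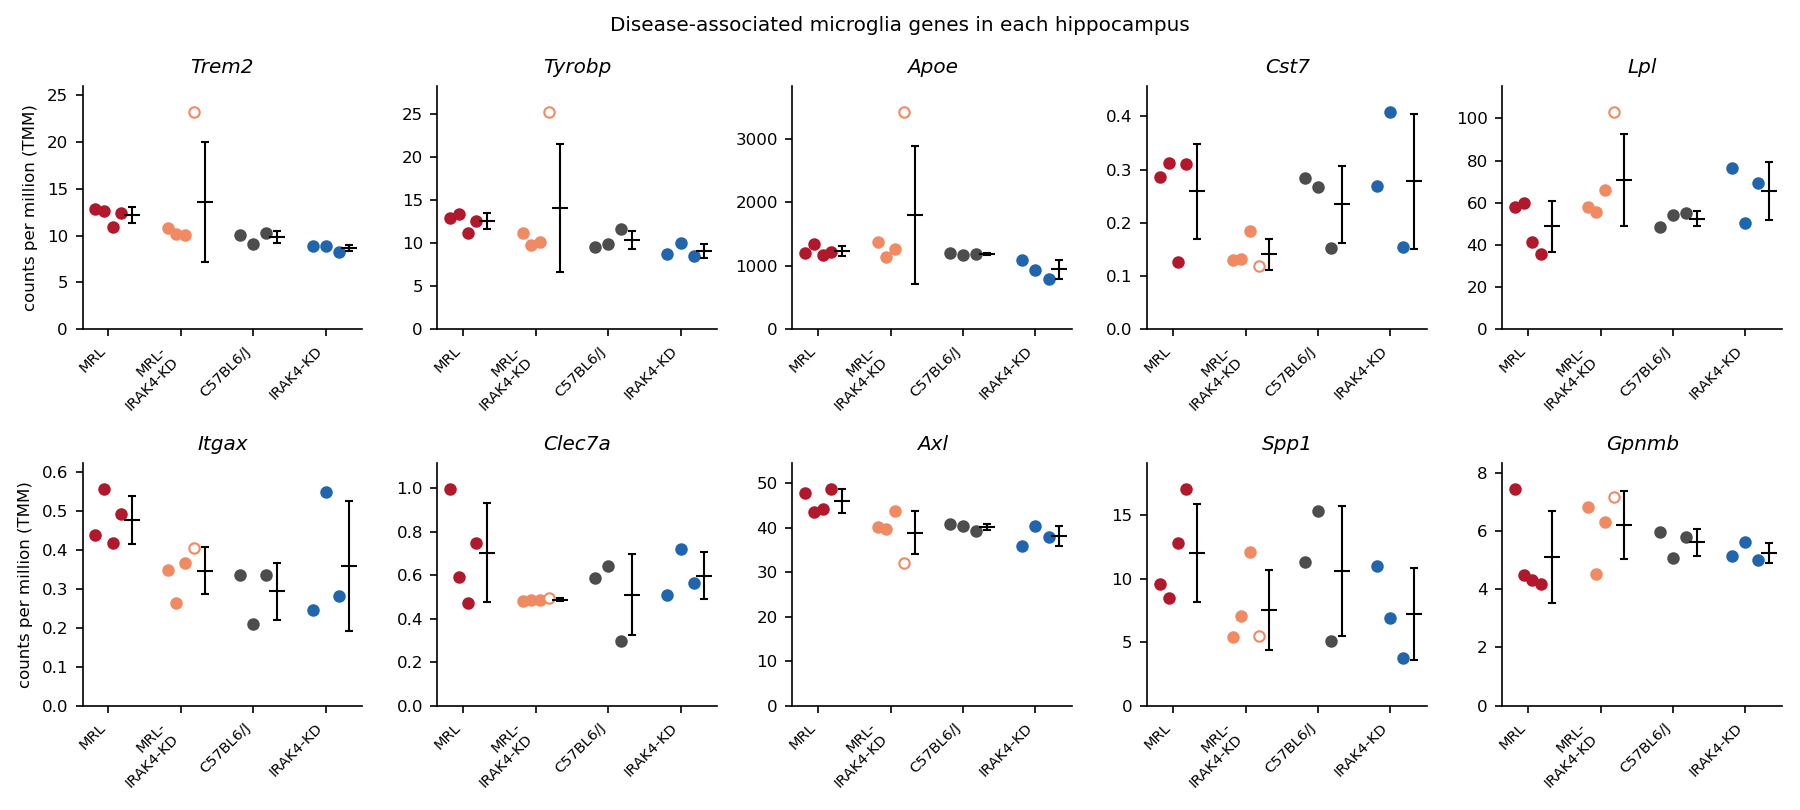
Level of each member in CPM (vertical axis, separate scale per gene) in the 4 groups, with 1 point per library and bars for the mean ± SD. The open circle is MRL-IRAK4-KD replicate 4, which lies far above its group in Trem2 (23.2), Tyrobp (25.2) and Apoe (3425) and below it in Axl (32.1).

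No member passed an adjusted p of 0.05 in any comparison. With edgeR's quasi-likelihood test and Benjamini-Hochberg adjustment over all genes, 0 of 10 members were called between MRL and MRL-IRAK4-KD, where 0.0972% of all genes were called, 0 of 10 between MRL and C57BL6/J (0.0% of all genes), 0 of 10 between IRAK4-KD and C57BL6/J (0.147%) and 0 of 10 between MRL-IRAK4-KD and IRAK4-KD (0.0735%). The interaction of lpr and kinase-dead Irak4 called 0 of 10 (0.00263% of all genes), and the test of any difference among the 4 groups called 0 of 10 (0.302%). DESeq2 and limma-voom also called 0 of 10 in each of the 6 tests. Without MRL-IRAK4-KD replicate 4, the test of any difference called Trem2 alone (adjusted p = 0.0296, edgeR), beside 1.32% of all genes. When the library labelled IRAK4-KD replicate 3 was left out as well, Trem2 had an adjusted p of 0.107.

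At an unadjusted p below 0.05, edgeR found 3 members in MRL against MRL-IRAK4-KD, Axl and Cst7 higher and Lpl lower in MRL, against 11.4% of all genes. The comparison of MRL with C57BL6/J found Itgax alone (5.55% of all genes), and that of IRAK4-KD with C57BL6/J found 0 (3.8%). MRL-IRAK4-KD against IRAK4-KD found 4, with Apoe, Trem2 and Tyrobp higher and Cst7 lower in MRL-IRAK4-KD (8.63%). The interaction found 0 members (4.17%) and the test of any difference found Apoe (8.84%). Without MRL-IRAK4-KD replicate 4 the members under this threshold were Trem2, Tyrobp and Axl between MRL and MRL-IRAK4-KD (8.52% of all genes), and Trem2, Axl, Tyrobp and Itgax between MRL and C57BL6/J (10.1%), all of them higher in MRL. Cst7 in MRL against MRL-IRAK4-KD then had an unadjusted p of 0.061 (adjusted p = 0.598, edgeR). In MRL-IRAK4-KD against IRAK4-KD only Apoe and Trem2 stayed under it (8.51%), with Tyrobp at 0.0841 (adjusted p = 0.615, edgeR) and Cst7 at 0.0513 (adjusted p = 0.588). IRAK4-KD against C57BL6/J then had Apoe, lower in IRAK4-KD (6.96%), the interaction had Apoe (4.8%), and the test of any difference had Trem2, Tyrobp, Axl and Apoe (13.1%). With the library labelled IRAK4-KD replicate 3 left out as well, Apoe had an unadjusted p of 0.051 (adjusted p = 0.876, edgeR) in IRAK4-KD against C57BL6/J. Cst7 was then under the threshold in MRL against MRL-IRAK4-KD (0.047, adjusted p = 0.568, 8.73% of all genes). It was also under it in MRL-IRAK4-KD against IRAK4-KD (0.0143, adjusted p = 0.612, 6.8% of all genes). In the interaction Apoe then had an unadjusted p of 0.0825, and Cst7 (0.0318) and Itgax (0.0499) were under the threshold (4.24% of all genes). The median log2 fold change of the 10 members was 0.04 for MRL over MRL-IRAK4-KD (all genes 0.0023), 0.19 for MRL over C57BL6/J (all genes -0.0046), -0.09 for IRAK4-KD over C57BL6/J (-0.0079) and 0.09 for MRL-IRAK4-KD over IRAK4-KD (0.0). The first was 0.26 without MRL-IRAK4-KD replicate 4 (all genes 0.0189).

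**Figure D3:**
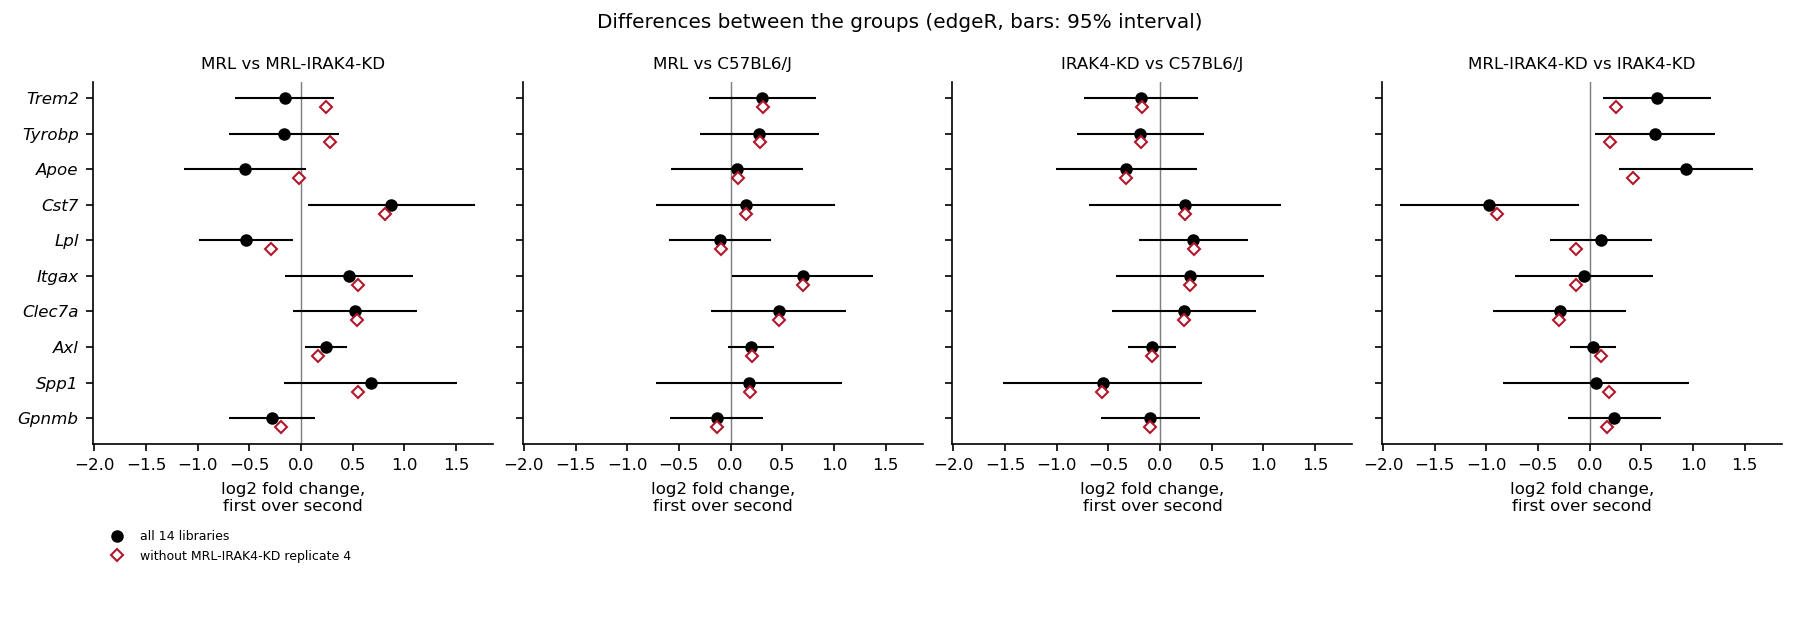
Log2 fold change of each member (horizontal axis) in the 4 comparisons of groups, from edgeR over all 14 libraries (filled circles with 95% intervals) and without MRL-IRAK4-KD replicate 4 (open diamonds). Trem2 moves from -0.16 to 0.24 and Tyrobp from -0.17 to 0.28 between MRL and MRL-IRAK4-KD when that library is left out.

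Trem2, the receptor of the programme (ENSMUSG00000023992.14, GRCm38 chromosome 17, 48346401 to 48354147), was the member whose groups separated most often. It had 12.8, 12.6, 10.9 and 12.4 CPM in MRL and 10.8, 10.2, 10.1 and 23.2 CPM in MRL-IRAK4-KD. In C57BL6/J it had 10.1, 9.1 and 10.3 CPM, and in IRAK4-KD 8.91, 8.85 and 8.27 CPM. Leaving out the value of 23.2, the 4 groups ran in the order MRL, MRL-IRAK4-KD, C57BL6/J and IRAK4-KD, and only MRL-IRAK4-KD and C57BL6/J overlapped. MRL averaged 12.2 ± 0.847 CPM and MRL-IRAK4-KD 13.6 ± 6.44 CPM (SD, n = 4 each), or 10.4 ± 0.375 CPM without replicate 4, while C57BL6/J averaged 9.83 ± 0.65 CPM and IRAK4-KD 8.68 ± 0.349 CPM (n = 3 each). MRL exceeded C57BL6/J by 0.31 on the log2 scale (SE 0.24, 95% interval -0.21 to 0.83, adjusted p = 1 by edgeR), and the exact permutation test gave p = 0.0571, the smallest that 4 libraries against 3 allow. In whole tissue, fewer cells of a type and less RNA per cell cannot be told apart.

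The counts of Trem2 were spread over 3 annotated transcripts. Trem2-201 took 40.1% of them, Trem2-202 31.3% and Trem2-203, a retained-intron form that makes no protein, 28.4%. The coding forms start at different points of the first exon, and within the gene they differ by 55 bases that Trem2-202 holds and Trem2-201 skips. They are shown in capitals with the 20 coding bases on each side (chr17:48351691-48351745, GRCm38, plus strand, GENCODE M21), above the same junction in Trem2-201.
Trem2-202: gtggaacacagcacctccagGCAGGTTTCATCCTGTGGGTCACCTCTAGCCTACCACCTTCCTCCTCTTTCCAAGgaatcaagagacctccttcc
Trem2-201: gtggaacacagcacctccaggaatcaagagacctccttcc
The share of Trem2-203 was 6.05% in MRL-IRAK4-KD replicate 4 and 19.6% to 37.6% in the other 13 libraries. The coding forms together had 8.23, 7.9, 8.39 and 9.18 CPM in MRL, 6.98, 6.92, 8.14 and 21.8 in MRL-IRAK4-KD, 6.8, 6.3 and 7.21 in C57BL6/J and 5.54, 6.05 and 5.56 in IRAK4-KD. For the coding forms too, the MRL and C57BL6/J libraries did not overlap (difference 0.31 on the log2 scale, exact permutation p = 0.0571). The retained-intron form overlapped between those groups (difference 0.25, exact permutation p = 0.457).

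Tyrobp, the adaptor that carries the signal of TREM2 (ENSMUSG00000030579.10, chromosome 7, 30413760 to 30417585), had 12.9, 13.4, 11.2 and 12.6 CPM in MRL and 11.2, 9.82, 10.1 and 25.2 in MRL-IRAK4-KD. C57BL6/J libraries held 9.52, 9.94 and 11.6 CPM, and IRAK4-KD libraries 8.69, 10.0 and 8.47. As with Trem2, MRL-IRAK4-KD replicate 4 was far above all others and MRL was next, but here MRL overlapped with C57BL6/J, and, with that library set aside, each group overlapped with its neighbour in the order of the means. MRL averaged 12.5 ± 0.974 CPM and MRL-IRAK4-KD 14.1 ± 7.42 CPM (SD, n = 4 each), or 10.4 ± 0.736 CPM without replicate 4, against 10.3 ± 1.09 CPM in C57BL6/J and 9.06 ± 0.85 CPM in IRAK4-KD (n = 3 each). The log2 fold change of MRL over MRL-IRAK4-KD was -0.17 (SE 0.25, adjusted p = 0.804 by edgeR) and 0.28 (SE 0.10, adjusted p = 0.459) without replicate 4. Over C57BL6/J it was 0.28 (SE 0.27, 95% interval -0.30 to 0.85, adjusted p = 1).

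Apoe, the main lipid carrier of the brain and a ligand of TREM2 (ENSMUSG00000002985.16, chromosome 7, 19696109 to 19699188, minus strand), had 1200, 1350, 1178 and 1221 CPM in MRL and 1380, 1139, 1261 and 3425 in MRL-IRAK4-KD. Its level was 1203, 1163 and 1190 CPM in C57BL6/J and 1092, 941 and 799 in IRAK4-KD. MRL and C57BL6/J overlapped, and all IRAK4-KD libraries were lower than every library of the other groups. The lowest of them was the library labelled IRAK4-KD replicate 3. MRL-IRAK4-KD exceeded IRAK4-KD by 0.93 on the log2 scale (SE 0.30, unadjusted p = 0.00847, adjusted p = 0.55 by edgeR) and by 0.42 (SE 0.10, adjusted p = 0.199) without MRL-IRAK4-KD replicate 4. IRAK4-KD against C57BL6/J gave -0.33 (SE 0.32, adjusted p = 1). Averages were 1237 ± 77 CPM for MRL and 1801 ± 1087 CPM for MRL-IRAK4-KD (SD, n = 4 each), or 1260 ± 121 CPM without replicate 4, and 1185 ± 20.1 CPM for C57BL6/J and 944 ± 146 CPM for IRAK4-KD (n = 3 each). The transcript Apoe-206 took 75.1% to 97.5% of the counts in 13 libraries and 34.2% in IRAK4-KD replicate 1.

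Lpl, the lipase that frees fatty acids from lipoproteins (ENSMUSG00000015568.16, chromosome 8, 68880491 to 68907448), had 58.1, 59.8, 41.4 and 35.9 CPM in MRL and 58.2, 55.5, 66.2 and 103 in MRL-IRAK4-KD. The values were 48.3, 54.1 and 54.9 CPM in C57BL6/J and 76.7, 50.5 and 69.5 in IRAK4-KD. The lowest levels were those of MRL replicates 3 and 4, and the groups overlapped in each comparison made. MRL averaged 48.8 ± 12 CPM and MRL-IRAK4-KD 70.7 ± 22.0 CPM (SD, n = 4 each), and C57BL6/J 52.5 ± 3.6 CPM and IRAK4-KD 65.6 ± 13.5 CPM (n = 3 each). The log2 fold change of MRL over MRL-IRAK4-KD was -0.54 (SE 0.21, unadjusted p = 0.0248, adjusted p = 0.437 by edgeR) and -0.29 (SE 0.18, unadjusted p = 0.122) without MRL-IRAK4-KD replicate 4. Lpl and Gpnmb were the members whose levels followed the summed level of hippocampal neuron markers most closely, a description only. Pearson r was 0.802 for Lpl and 0.711 for Gpnmb over 14 libraries, and 0.647 and 0.646 over the 13 without MRL-IRAK4-KD replicate 4. Of those 10 neuron markers, 4 had an unadjusted p below 0.05 and a lower level in MRL than in MRL-IRAK4-KD (2 without MRL-IRAK4-KD replicate 4). In either direction, 11.4% of all genes were under that p (8.52% without that library). The summed neuron markers ranged from 735 to 1301 CPM in MRL, 1055 to 2254 in MRL-IRAK4-KD, 852 to 1147 in C57BL6/J and 1166 to 1499 in IRAK4-KD, and their part in the Lpl and Gpnmb values was not tested.

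Axl, a receptor kinase through which phagocytes bind dying cells by way of GAS6 (ENSMUSG00000002602.16, chromosome 7, 25757273 to 25788705, minus strand), differed little in level between groups. MRL libraries held 47.9, 43.5, 44.1 and 48.8 CPM, and MRL-IRAK4-KD libraries 40.1, 39.7, 43.8 and 32.1. C57BL6/J had 40.8, 40.4 and 39.3 CPM and IRAK4-KD 35.9, 40.4 and 37.9. Every MRL library was above every C57BL6/J and IRAK4-KD library, and MRL overlapped with MRL-IRAK4-KD by a single library. MRL averaged 46.1 ± 2.66 CPM and MRL-IRAK4-KD 38.9 ± 4.91 CPM (SD, n = 4 each), or 41.2 ± 2.26 CPM without replicate 4. C57BL6/J averaged 40.2 ± 0.747 CPM and IRAK4-KD 38.1 ± 2.25 CPM (n = 3 each). MRL exceeded MRL-IRAK4-KD by 0.24 on the log2 scale (SE 0.10, 95% interval 0.04 to 0.45, unadjusted p = 0.0231, adjusted p = 0.437 by edgeR) and C57BL6/J by 0.20 (SE 0.10, adjusted p = 0.917). These are 1.18-fold and 1.15-fold, and without MRL-IRAK4-KD replicate 4 the first was 0.17 on the log2 scale.

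Itgax (CD11c, the alpha chain of an integrin of dendritic cells and reactive microglia, ENSMUSG00000030789.9, chromosome 7, 128129547 to 128150657) had 0.439, 0.558, 0.418 and 0.493 CPM in MRL and 0.349, 0.264, 0.368 and 0.406 in MRL-IRAK4-KD. It had 0.336, 0.209 and 0.337 CPM in C57BL6/J and 0.245, 0.55 and 0.283 in IRAK4-KD. All MRL libraries were above all MRL-IRAK4-KD and C57BL6/J libraries, while IRAK4-KD replicate 2 was as high as the MRL mice. MRL averaged 0.477 ± 0.0628 CPM and MRL-IRAK4-KD 0.346 ± 0.0599 CPM (SD, n = 4 each), C57BL6/J 0.294 ± 0.0736 CPM and IRAK4-KD 0.36 ± 0.166 CPM (n = 3 each). The difference between MRL and MRL-IRAK4-KD had an exact permutation p of 0.0286, the smallest that 4 libraries against 4 allow (0.285 after Benjamini-Hochberg adjustment over the 40 such tests of the members). Before adjustment it was the only 1 of the 10 members below 0.05 in this comparison, and the other comparisons, with 3 libraries in a group, cannot go below 0.0571. By edgeR it was 0.46 on the log2 scale (SE 0.29, 95% interval -0.16 to 1.08, adjusted p = 0.502), and MRL over C57BL6/J was 0.70 (SE 0.32, 95% interval 0.02 to 1.38, unadjusted p = 0.0451, adjusted p = 0.899). The summed dendritic cell markers were 19.8 to 23.9 CPM in MRL, 14.6 to 21.6 in MRL-IRAK4-KD, 22.1 to 23.2 in C57BL6/J and 22.2 to 23.6 in IRAK4-KD, most of it from Flt3 and Zbtb46, with Xcr1 and Ccr7 at 0 in some libraries, and their part in the Itgax values was not tested.

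Trem2, Itgax and Axl were the 3 members whose MRL and C57BL6/J libraries did not overlap, against 9.63% of all genes in that comparison. The 150 bases before their start sites are shown (RefSeq, GRCm38.p6), with matches to 2 short motifs in capitals: GAGGAA on either strand, the core of sites for the myeloid factor PU.1, and TGANTCA, which takes in sites of the AP-1 family. The positions are chr17:48346251-48346400 (plus strand) for Trem2, chr7:128129400-128129549 (plus) for Itgax and chr7:25788734-25788883 (minus) for Axl.
Trem2 upstream: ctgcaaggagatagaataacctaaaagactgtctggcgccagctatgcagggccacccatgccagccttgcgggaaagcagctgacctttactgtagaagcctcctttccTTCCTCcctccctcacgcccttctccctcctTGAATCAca
Itgax upstream: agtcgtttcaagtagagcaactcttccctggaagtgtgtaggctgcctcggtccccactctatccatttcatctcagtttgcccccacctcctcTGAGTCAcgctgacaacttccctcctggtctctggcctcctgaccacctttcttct
Axl upstream: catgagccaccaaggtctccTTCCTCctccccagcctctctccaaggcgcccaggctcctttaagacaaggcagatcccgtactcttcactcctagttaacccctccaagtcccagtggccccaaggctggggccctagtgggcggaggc
Within 250 bases before the start, GAGGAA was present in 23.3% of 32851 promoters and in 5 of the 8 members in the table (Apoe, Axl, Clec7a, Spp1 and Trem2). TGANTCA was present in 6.75% of promoters and in Itgax and Trem2, and CACGTG, an E-box of the TFEB and MITF family, in 6.02% and in 0 of the 8. The members not in the table are Tyrobp and Lpl. A match describes the letters of the window and shows no binding.

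Clec7a (Dectin-1, a receptor for fungal glucans that marks plaque-associated microglia, ENSMUSG00000079293.11, chromosome 6, 129461591 to 129472779, minus strand) had 0.998, 0.592, 0.471 and 0.748 CPM in MRL and 0.479, 0.488, 0.487 and 0.496 in MRL-IRAK4-KD. C57BL6/J had 0.587, 0.644 and 0.297 CPM and IRAK4-KD 0.51, 0.718 and 0.562. The 4 MRL-IRAK4-KD libraries lay close together, just below all IRAK4-KD libraries, and MRL overlapped with every other group. MRL averaged 0.702 ± 0.227 CPM and MRL-IRAK4-KD 0.488 ± 0.00703 CPM (SD, n = 4 each), and C57BL6/J 0.509 ± 0.186 CPM and IRAK4-KD 0.597 ± 0.108 CPM (n = 3 each). The log2 fold change of MRL over MRL-IRAK4-KD was 0.53 (SE 0.28, 95% interval -0.07 to 1.13, adjusted p = 0.449 by edgeR), and over C57BL6/J it was 0.46 (SE 0.30, adjusted p = 0.952).

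A sharper contrast lay in the transcript that the counts of Clec7a were given to. In 9 libraries Clec7a-201 took at least 90.5% of the counts and Clec7a-204 at most 2.91%, and in MRL replicate 1 they took 79.5% and 11.2%. In MRL replicate 3, MRL replicate 4, MRL-IRAK4-KD replicate 1 and the library labelled IRAK4-KD replicate 3, Clec7a-204, annotated as a polymorphic pseudogene, took 88.3%, 95.8%, 90.5% and 96.5%. The forms are 2277 and 2272 bases long and differ at the junction of exons 2 and 3 in a block of 10 bases, shown in capitals with 20 bases on each side (GENCODE M21, GRCm38, minus strand, chr6:129470889-129470898 in Clec7a-201 and chr6:129468994-129469003 in Clec7a-204), and Clec7a-201 also has 5 further bases that Clec7a-204 lacks.
Clec7a-201: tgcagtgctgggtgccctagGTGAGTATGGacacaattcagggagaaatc
Clec7a-204: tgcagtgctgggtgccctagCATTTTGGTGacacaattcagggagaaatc
All 4 libraries with mostly Clec7a-204 had the lpr form of Fas, as did 5 libraries with mostly Clec7a-201. With 121 to 464 counts of the gene per library and forms that share nearly all of their bases, the assignment rests on few reads.

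**Figure D4:**
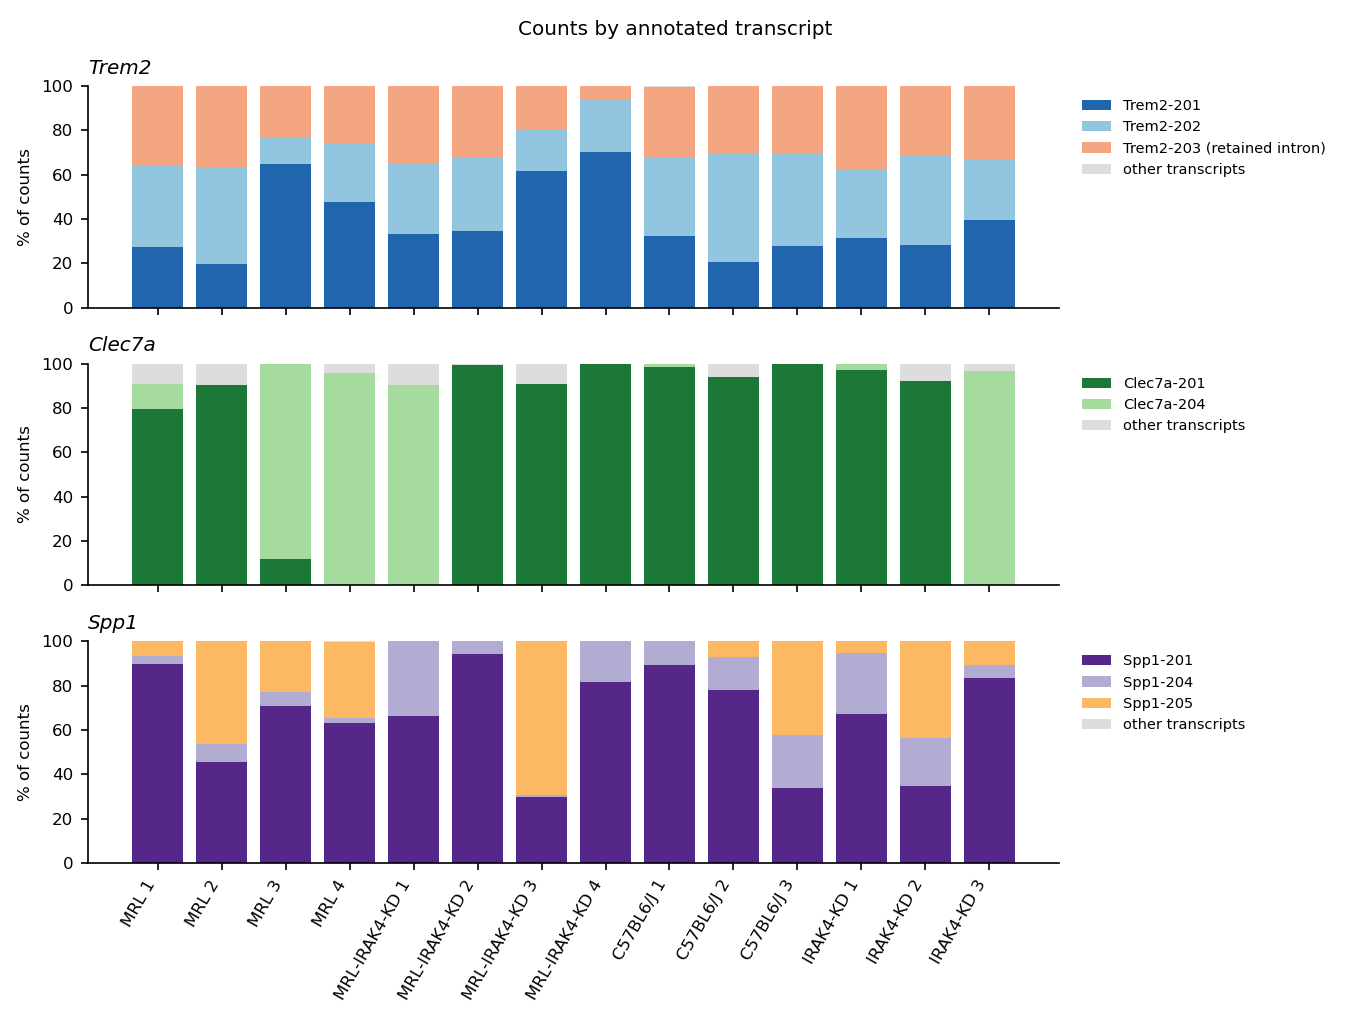
Share of the counts of Trem2, Clec7a and Spp1 given to each annotated transcript (vertical axis, %) in each library, with transcripts of at least 10% of a gene's counts in colour and the rest in grey. Clec7a-204 fills 88.3% to 96.5% of 4 libraries and the retained-intron form of Trem2 shrinks to 6.05% in MRL-IRAK4-KD replicate 4.

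Cst7 (cystatin F, an inhibitor of lysosomal cathepsins and among the strongest genes of the programme, ENSMUSG00000068129.5, chromosome 2, 150570415 to 150578944) had 0.286, 0.313, 0.127 and 0.311 CPM in MRL and 0.13, 0.132, 0.184 and 0.119 in MRL-IRAK4-KD. C57BL6/J had 0.284, 0.268 and 0.152 CPM and IRAK4-KD 0.27, 0.408 and 0.155. Low values of 0.119 to 0.184 thus occurred in all MRL-IRAK4-KD libraries and in 1 library of each other group, so that every pair of groups overlapped. In the IRAK4-KD group the low library was the one labelled replicate 3, which had the lpr form of Fas. The other IRAK4-KD libraries (0.27 and 0.408 CPM) were above all MRL-IRAK4-KD libraries. MRL averaged 0.259 ± 0.0893 CPM and MRL-IRAK4-KD 0.141 ± 0.0289 CPM (SD, n = 4 each), with 0.235 ± 0.0719 CPM for C57BL6/J and 0.278 ± 0.127 CPM for IRAK4-KD (n = 3 each). MRL-IRAK4-KD was lower than MRL (log2 fold change of MRL over MRL-IRAK4-KD 0.87, SE 0.38, unadjusted p = 0.0364, adjusted p = 0.439 by edgeR) and lower than IRAK4-KD (-0.97, SE 0.40, unadjusted p = 0.0304, adjusted p = 0.553). The exact permutation test gave p = 0.114 for both. Without MRL-IRAK4-KD replicate 4 these log2 fold changes were 0.81 (SE 0.40, unadjusted p = 0.061 by edgeR) and -0.90 (SE 0.42, unadjusted p = 0.0513). With the library labelled IRAK4-KD replicate 3 left out as well, they were 0.80 (SE 0.36, unadjusted p = 0.047, adjusted p = 0.568 by edgeR) and -1.19 (SE 0.42, unadjusted p = 0.0143, adjusted p = 0.612).

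Spp1 (osteopontin, a secreted ligand of integrins and CD44, ENSMUSG00000029304.14, chromosome 5, 104435118 to 104441050) varied widely within every group. It had 9.58, 8.5, 12.8 and 17.1 CPM in MRL and 5.4, 7.07, 12.1 and 5.49 in MRL-IRAK4-KD. The values were 11.3, 15.3 and 5.13 CPM in C57BL6/J and 11.0, 6.87 and 3.75 in IRAK4-KD. All groups overlapped, with averages of 12 ± 3.84 CPM for MRL and 7.52 ± 3.15 CPM for MRL-IRAK4-KD (SD, n = 4 each), and of 10.6 ± 5.14 CPM for C57BL6/J and 7.2 ± 3.63 CPM for IRAK4-KD (n = 3 each). MRL over MRL-IRAK4-KD was 0.67 on the log2 scale (SE 0.39, 95% interval -0.16 to 1.51, adjusted p = 0.471 by edgeR). Across libraries, the level of Spp1 went with the summed markers of border macrophages (Pearson r = 0.739 over 14 libraries, 0.886 over 13) and of meninges and fibroblasts (0.722 and 0.815). The meningeal sum ranged from 143 to 248 CPM in MRL, 174 to 244 in MRL-IRAK4-KD, 150 to 319 in C57BL6/J and 101 to 200 in IRAK4-KD, and the amount of meninges in each dissection was not tested as a source of Spp1.

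Gpnmb (a transmembrane glycoprotein of lysosomes and lipid-laden macrophages, ENSMUSG00000029816.10, chromosome 6, 49036546 to 49070929) had 7.45, 4.47, 4.32 and 4.18 CPM in MRL and 6.81, 4.52, 6.29 and 7.16 in MRL-IRAK4-KD. C57BL6/J had 5.95, 5.08 and 5.79 CPM and IRAK4-KD 5.12, 5.62 and 4.99. All groups overlapped, and 3 of the 4 MRL libraries were the lowest of all 14. The averages were 5.1 ± 1.57 CPM for MRL and 6.2 ± 1.17 CPM for MRL-IRAK4-KD (SD, n = 4 each), and 5.61 ± 0.462 CPM for C57BL6/J and 5.25 ± 0.333 CPM for IRAK4-KD (n = 3 each). The largest difference was that of MRL from MRL-IRAK4-KD (log2 fold change -0.28, SE 0.19, 95% interval -0.70 to 0.14, adjusted p = 0.541 by edgeR).

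Groups that did not overlap were counted for all members. Between MRL and MRL-IRAK4-KD this held for Itgax alone (5.26% of all genes), and for Trem2 and Itgax without MRL-IRAK4-KD replicate 4 (7.99%). IRAK4-KD was below C57BL6/J without overlap in Trem2 and Apoe (11.2% of all genes). MRL-IRAK4-KD was above IRAK4-KD in Trem2 and Apoe and below it in Clec7a (8.74%), and these 3 members also did not overlap without MRL-IRAK4-KD replicate 4 (15.2%). With 3 or 4 libraries in a group the intervals were wide. The 95% interval of MRL over MRL-IRAK4-KD held no change above 1.37-fold in either direction for Axl and none above 1.55-fold for Trem2, but allowed up to 2.12-fold for Itgax, 2.84-fold for Spp1 and 3.22-fold for Cst7.

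Among 36 other genes of the disease-associated programme, 1 was called in the pairwise comparisons. Ch25h, the enzyme that makes 25-hydroxycholesterol, had 0.447, 0.586, 0.522 and 2.25 CPM in MRL and 0.099, 0.0702, 0.147 and 0.0483 in MRL-IRAK4-KD. It had 0.165, 0.278 and 0.182 CPM in C57BL6/J and 0.258, 0.165 and 0.162 in IRAK4-KD, so that every MRL library was above every other library. MRL exceeded MRL-IRAK4-KD by 3.37 on the log2 scale (SE 0.55, adjusted p = 0.0371 by edgeR), and by 2.51 without MRL replicate 4. The call did not hold in all fits: it passed in 4 of 14 with 1 library left out (adjusted p 0.0221 to 0.155) and in 6 of 9 other alternatives (6.49e-08 to 0.459). The next in this list were Lilrb4a, an inhibitory receptor (1.37 ± 0.336 CPM in MRL and 0.711 ± 0.12 in MRL-IRAK4-KD, SD, n = 4 each, log2 fold change 0.95, adjusted p = 0.335), Lyz2, lysozyme (0.70, adjusted p = 0.401), and Cybb, the NADPH oxidase subunit of phagocytes (1.03, adjusted p = 0.401). Of the 36 genes, 18 were higher in MRL than in MRL-IRAK4-KD and 30 higher than in C57BL6/J (median log2 fold changes 0.02 and 0.14). At an unadjusted p below 0.05 there were 7 (5 higher in MRL) and 8 (all higher in MRL), beside 11.4% and 5.55% of all genes. Without MRL-IRAK4-KD replicate 4, 29 of the 36 were higher in MRL than in MRL-IRAK4-KD (median 0.05), 8 of them and 0 lower ones at that threshold, and 31 were higher than in C57BL6/J, 14 of them at that threshold. The shares of all genes at that threshold were then 8.52% and 10.1%. Without that library the test of any difference called 6 of the 36 in place of 1 (lowest adjusted p = 0.0175, edgeR), beside 1.32% of all genes.

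The list of TREM2 and TYROBP signalling had 0 of 20 genes called in each of the pairwise comparisons. It takes in other receptors, an adaptor and proteases as well as genes that act below TREM2 and TYROBP. In MRL against MRL-IRAK4-KD 19 of the 20 were higher in MRL (median log2 fold change 0.32, all genes 0.0023), 8 of them at an unadjusted p below 0.05 (11.4% of all genes). Against C57BL6/J the counts were 18 and 6 (median 0.26, 5.55% of all genes under that p). Without MRL-IRAK4-KD replicate 4 they were 17 and 9 (median 0.22, all genes 0.0189, 8.52% under that p) and 19 and 7 (median 0.26, 10.1%). Without that library the test of any difference called 2 of the 20 in place of 0 (lowest adjusted p = 0.0404, edgeR), beside 1.32% of all genes. Inpp5d (SHIP1, a phosphatase that restrains this pathway) had 13.8 ± 1.9 CPM in MRL and 9.93 ± 2.03 in MRL-IRAK4-KD (SD, n = 4 each, log2 fold change 0.48, SE 0.15, adjusted p = 0.403 by edgeR). Pik3ap1, an adaptor of PI3 kinase, was at 0.51 (SE 0.17, adjusted p = 0.416) and Lat2, an adaptor of immune receptors, at 0.68 (SE 0.21, adjusted p = 0.401). Trem1, a TYROBP-coupled receptor of neutrophils and monocytes, was found in MRL libraries (0.0323 CPM on average) and had 0 counts in the other 10. The kinase Syk itself was at 0.23 (SE 0.16, adjusted p = 0.549).

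Of 24 ligands, receptors and partners of the members, 0 were called in each of the pairwise comparisons. Under an unadjusted p of 0.05 were 6 (MRL against MRL-IRAK4-KD) and 3 (MRL against C57BL6/J), beside 11.4% and 5.55% of all genes. The lowest p values for MRL over MRL-IRAK4-KD were those of Tyro3, the neuronal relative of Axl (log2 fold change 0.38, SE 0.13, adjusted p = 0.432 by edgeR), Itgav, an integrin chain that binds osteopontin (0.75, SE 0.28, adjusted p = 0.437), Itgb2, the beta chain that pairs with Itgax (0.37, SE 0.15, adjusted p = 0.437), and Lrp1, a receptor for APOE (0.40, SE 0.18, adjusted p = 0.439). The counts under an unadjusted p of 0.05 were 7 and 11 without MRL-IRAK4-KD replicate 4, beside 8.52% and 10.1% of all genes. Itgb2 was also the lowest between MRL and C57BL6/J (0.56, SE 0.16, adjusted p = 0.641).

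Resting microglia genes had their highest summed level in MRL. The 16 homeostatic markers summed to 502 to 632 CPM in MRL, 468 to 482 in MRL-IRAK4-KD, 431 to 457 in C57BL6/J and 415 to 460 in IRAK4-KD, so that MRL stood above every library of the other groups. All 16 were higher in MRL than in C57BL6/J (median log2 fold change 0.27, 4 at an unadjusted p below 0.05 beside 5.55% of all genes, 0 called), and 13 were higher than in MRL-IRAK4-KD (median 0.14, 4 at an unadjusted p below 0.05 beside 11.4% of all genes). Without MRL-IRAK4-KD replicate 4 these were 16 (10 under that p, all genes 10.1%) and 15 (7 under it, all genes 8.52%, median 0.21). Among those in the second comparison were Sall1, a factor of microglial identity (0.42, SE 0.17, adjusted p = 0.437 by edgeR), and Fcrls, a receptor-like gene of microglia (0.24, SE 0.11, adjusted p = 0.439). The 12 markers of all myeloid cells were likewise higher in MRL than in C57BL6/J, 12 of 12 (median 0.39, 7 at an unadjusted p below 0.05 beside 5.55% of all genes). In mean CPM, not all 12 were higher in MRL than in MRL-IRAK4-KD. Their sum was 300 to 389 CPM in MRL and 265 to 468 in MRL-IRAK4-KD. The value of 468 was that of MRL-IRAK4-KD replicate 4, and the rest of its group had at most 290.

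Set against the homeostatic sum of the same library, Trem2 hardly differed between MRL and C57BL6/J. The log2 ratio of Trem2 to that sum was -5.48 ± 0.122 (SD, n = 4) in MRL and -5.49 ± 0.103 (n = 3) in C57BL6/J, a difference of 0.01 (exact permutation p = 0.914). MRL and MRL-IRAK4-KD also overlapped on this ratio, with and without MRL-IRAK4-KD replicate 4. MRL-IRAK4-KD stayed above IRAK4-KD without overlap (0.43, exact permutation p = 0.0571, and 0.14 without that library). IRAK4-KD stayed below C57BL6/J without overlap (-0.17, exact permutation p = 0.1, the smallest possible). Tyrobp, Apoe, Cst7, Axl and Spp1, which were higher in MRL than in C57BL6/J as CPM, were lower as a ratio, by 0.02 for Tyrobp, 0.24 for Apoe, 0.19 for Cst7, 0.10 for Axl and 0.03 for Spp1 on the log2 scale. Itgax (-10.2 in MRL, -10.6 in C57BL6/J) and Clec7a (-9.65 and -9.84) stayed higher as a ratio. Lpl was lower in MRL on both scales (ratio -3.51 ± 0.333 in MRL, -2.79 ± 0.421 in MRL-IRAK4-KD and -3.08 ± 0.144 in C57BL6/J). On the ratio, the exact permutation p of Itgax between MRL and MRL-IRAK4-KD was 0.229. This ratio was added after the values had been seen.

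Markers of monocytes and neutrophils, of red cells and of vessels also had their highest sums in MRL libraries, while those of lymphocytes did not. All 10 markers of monocytes and neutrophils had a higher level in MRL than in MRL-IRAK4-KD with an unadjusted p below 0.05 (11.4% of all genes), and 9 of the 10 than in C57BL6/J (5.55%), with 0 called. Their sum ranged from 3.02 to 37.5 CPM in MRL, 1.5 to 5.06 in MRL-IRAK4-KD, 1.94 to 4.31 in C57BL6/J and 2.68 to 7.24 in IRAK4-KD, so that the lowest MRL library lay within the range of the other groups, and only Retnlg was at 0 in any library. All 5 red cell markers were higher in MRL than in both other groups (sum 83.9 to 369 CPM in MRL, 52.9 to 193 in MRL-IRAK4-KD, 43.6 to 93.6 in C57BL6/J and 19.8 to 55.3 in IRAK4-KD). Endothelial and mural markers summed to 245 to 321 CPM in MRL and at most 216 elsewhere, with Slco1a4, a transporter of the brain endothelium, called between MRL and MRL-IRAK4-KD (log2 fold change 0.88, adjusted p = 0.0434 by edgeR). That call passed in 3 of 14 fits with 1 library left out. Lymphocyte markers summed to 2.18 to 3.64 CPM in MRL, 1.99 to 3.47 in MRL-IRAK4-KD, 2.01 to 3.74 in C57BL6/J and 2.4 to 7.84 in IRAK4-KD. Among them Cd3d, Ms4a1, Nkg7 and Gzma were at 0 in some libraries. The part of blood and vessels in the members' values was not tested. Choroid plexus markers summed to 73.4 to 1700 CPM in MRL, 160 to 7898 in MRL-IRAK4-KD, 121 to 448 in C57BL6/J and 168 to 1480 in IRAK4-KD. In the remaining lists (border macrophages, dendritic cells, lymphocytes, astrocytes, oligodendrocytes, choroid plexus, meninges, pituitary, hippocampal neurons, and striatum and thalamus) 0 genes were called in each of the 4 pairwise comparisons.

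**Figure D5:**
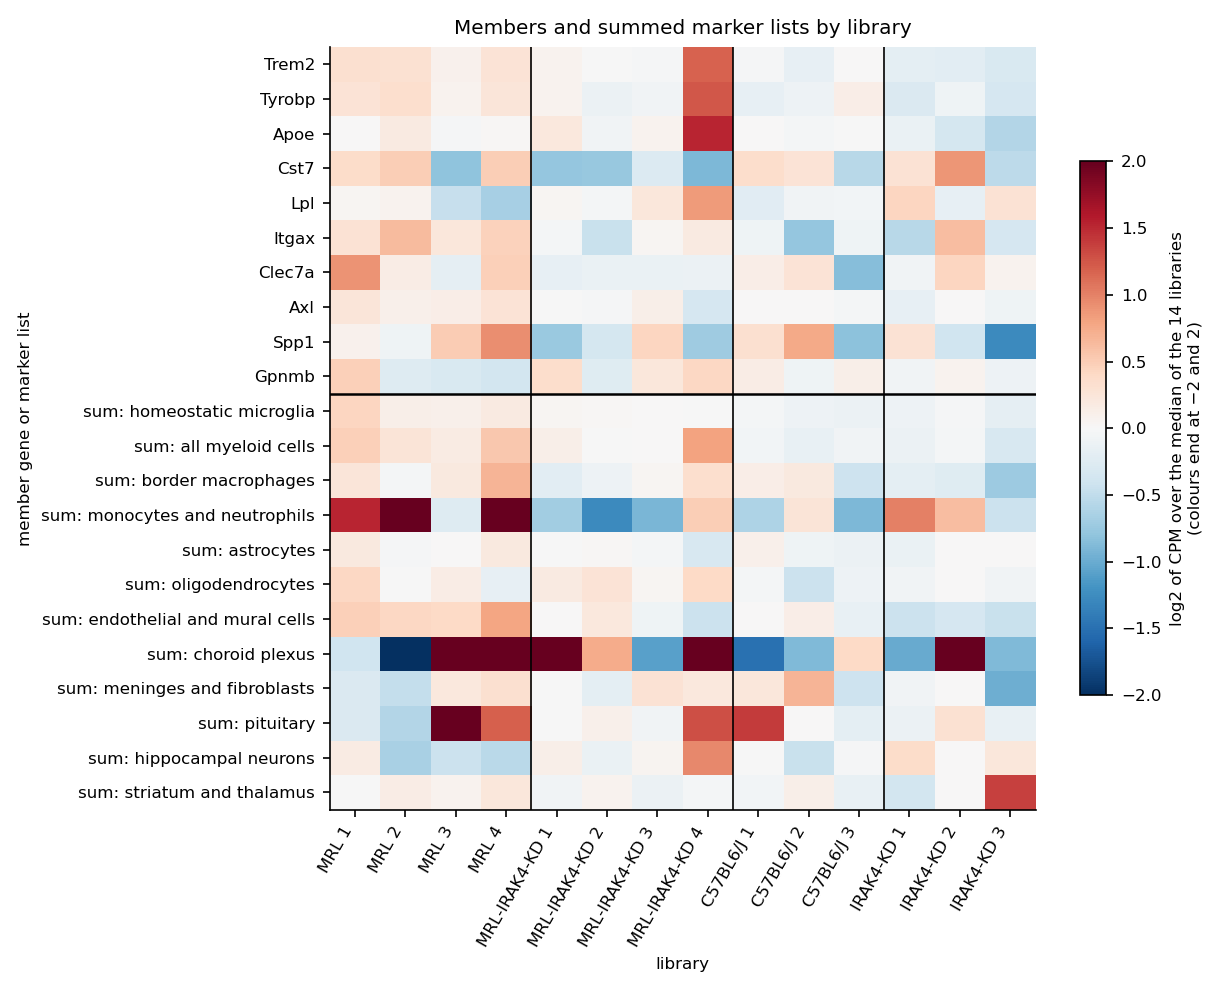
Each cell gives the log2 of CPM over the median of the 14 libraries, for each member (above the line) and for the sums of most of the marker lists (below it), in the libraries of the 4 groups, with colours ending at -2 and 2. MRL libraries are above the median in homeostatic and endothelial sums, and MRL-IRAK4-KD replicate 4 is the highest library in Trem2, Tyrobp, Apoe and the myeloid sum.

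The members did not vary as a unit. Of the 45 pairs of members, 7 had a Pearson r above 0.5 over the 14 libraries and 11 over the 13 without MRL-IRAK4-KD replicate 4, with medians of 0.069 and 0.211. These correlations, on log2(CPM + 0.1), describe libraries that also differed in depth and in markers of neighbouring tissue, and the part of these differences in them was not tested. Among 16103 genes with a mean of at least 1 CPM, the pattern of Trem2 was most like those of C1qb (r = 0.979 over 14 libraries, 0.933 over 13), Tyrobp (0.979, 0.924) and Gpx1 (0.971, 0.916). Tyrobp was most like Trem2, Gpx1 (0.971, 0.917) and C1qb (0.97, 0.9), and Apoe like Gm5617 (0.993, 0.967), Pgls (0.99, 0.948) and Cox5b (0.987, 0.935).

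The other members had other neighbours. Axl was most like Adgre5 (0.957 over 14 libraries, 0.931 over 13), mt-Tl1 (0.944, 0.911) and Wdfy4 (0.941, 0.932). Spp1 was most like H2-Q1 (0.973, 0.973), Prg4 (0.972, 0.971) and Anpep (0.97, 0.967), and Gpnmb was most like Gfap, a filament of astrocytes (0.916, 0.952), Kctd4 (0.877, 0.862) and Gtf2f2 (0.866, 0.836). Lpl came closest to Kri1 (0.916, 0.85), Gm20208 (0.914, 0.847) and Kcnip2 (0.912, 0.843). The low members had looser neighbours: Clec7a with Entpd1 (0.82, 0.822), Hacd4 (0.809, 0.848) and Hk3 (0.776, 0.836), Cst7 with Traf1 (0.826, 0.839), Gm26588 (0.72, 0.668) and Zc3h11a (0.718, 0.667), and Itgax with B330016D10Rik (0.767, 0.766) and Emp2 (0.72, 0.799).

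Transcripts of the remaining members were dominated by a single form in Cst7 (100%), Lpl (99.5%), Axl (97.9%) and Itgax (97.6%), and less so in Gpnmb (Gpnmb-201 88.1%, Gpnmb-203 10.9%) and Tyrobp (Tyrobp-201 87.3%, Tyrobp-202 11.7%). Spp1 was split between Spp1-201 (65.2%, from 29.8% to 94.1% by library), Spp1-205 (23.9%, from 0.0% to 69.5%) and Spp1-204 (10.9%), and no group held a pattern of its own. Spp1 was also the only member that overlaps another annotated gene, Gm42793 on the same strand, which had 84 counts over all libraries.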

How the data were processed

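Groups of the 14 hippocampal libraries came from the labels. Per the submitters' processing notes and the paper, HISAT2 2.1.0 (mm10), SAMtools 1.9 and StringTie 2.1.0 were used. The authors deposited estimated counts, derived by StringTie from coverage and written as whole numbers, for genes and for transcripts, without normalization. These are not independent molecules. The annotation is not given in the sources used here, and all 55536 Ensembl identifiers match GENCODE M21. Rows of other kinds (26345, with 0.0254% to 0.1884% of the counts) were left out. A deposited sheet of the sequencing core gave read counts (148569712 to 299836957 per library) and library concentrations. The paper names a SMART-seq preparation and the labels a KAPA kit.

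Genes with at least 10 counts entered 1 edgeR 4.0.16 quasi-likelihood fit of the 4 groups (TMM, robust, R 4.3.3), with Benjamini-Hochberg adjustment across 38070 genes. Alternatives were DESeq2 1.42.0, limma 3.58.1 (voom with quality weights), other scalings, filters and samples, and the replicate block. Exact 2-sided permutation tests used log2(CPM + 0.1). Levels per kilobase divide each transcript's count by its length. The tests were tried on simulated data.

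The members and the 18 other gene lists were chosen with earlier results of these data known. The text names the members, at most 4 genes per list (adjusted p below 0.05, then the lowest p between MRL and MRL-IRAK4-KD), the 3 most similar genes per member, transcripts with at least 10% of a member's counts, Fas and Irak4. Syk, the per-length comparison genes, markers at 0 and the closest genes over 13 libraries were named after values were seen. Some genes that this rule names are not reported here. The ratio to homeostatic genes and the coding-only level of Trem2 were also added then.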

Additional observations from a re-analysis of the deposited data

Results flagged for a closer look

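Of 20 groups of 4 libraries (10 members in MRL and in MRL-IRAK4-KD), 5 held a library whose gap to the nearest other exceeded 0.829 of the range of the group. For a single group of normally distributed values, chance gives about 1 in 20. The groups are not independent, since Trem2, Tyrobp and Apoe were flagged in the same library, so the number of flags cannot be set against that rate. In MRL-IRAK4-KD replicate 4, Trem2 was at 23.2 CPM (nearest 10.8), Tyrobp at 25.2 CPM (nearest 11.2) and Apoe at 3425 CPM (nearest 1380). Cst7 was at 0.127 CPM in MRL replicate 3 (nearest 0.286), the library with the high pituitary markers, and Gpnmb at 7.45 CPM in MRL replicate 1 (nearest 4.47). No cause was tested for these values.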

How the results depend on the processing

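Of 440 member differences recomputed under settings other than leaving out 1 library, 427 kept their direction and their side of the threshold and 13 changed sign, and of 700 with 1 library left out 675 did so and 25 changed sign; the cause was not tested. In the order MRL vs MRL-IRAK4-KD, MRL vs C57BL6/J, IRAK4-KD vs C57BL6/J, MRL-IRAK4-KD vs IRAK4-KD, interaction and any difference, genes called over the whole table were 37, 0, 56, 28, 1 and 115 by edgeR, 395, 197, 166, 283, 59 and 1173 by DESeq2, and 232, 67, 145, 266, 24 and 957 by limma-voom. Fitting only the groups compared gave 18, 95 and 6 for the first, the third and the fourth, leaving out both libraries that stand apart gave 20 (MRL vs C57BL6/J), 11 (interaction) and 207 (any difference), and no filter gave 4 for the interaction. With 1 library left out the counts ranged over 25 to 52, 0 to 21, 33 to 106, 11 to 65, 1 to 15 and 54 to 499, and members called over 0 to 1 (any difference), the upper value being Trem2 without MRL-IRAK4-KD replicate 4. Replicate numbers did not pair the samples (19 same-numbered pairs, r of deviations -0.251 to 0.375, 4 above 0.1, and 9 of 38 best with their own number). The replicate block called 34, 0, 48, 23, 2 and 85 genes and no member, and turned Apoe to -0.0993 in MRL vs C57BL6/J. By limma-voom, which gave MRL-IRAK4-KD replicate 4 a weight of 0.0852, Trem2 was at 0.1706 in MRL vs MRL-IRAK4-KD and 0.0096 in the interaction, Tyrobp at 0.2112 and 0.0597, and Cst7 at -0.099 in MRL vs C57BL6/J (log2 fold changes, as below). With both libraries that stand apart left out, Trem2 was at 0.2272 and 0.0849, Tyrobp at 0.2709 and 0.1315, and Lpl at -0.0886 and Spp1 at -0.1276 in MRL-IRAK4-KD vs IRAK4-KD. With library size alone as the scale, Axl was at -0.016 in MRL-IRAK4-KD vs IRAK4-KD. Over the homeostatic sum, 0 of the 10 permutation tests that could reach p below 0.05 did so in place of 1, and Tyrobp (-0.0154), Apoe (-0.2357), Cst7 (-0.1882), Axl (-0.0991) and Spp1 (-0.0319) changed sign in MRL vs C57BL6/J, as did Lpl (-0.0312), Itgax (-0.0929), Axl (-0.0914) and Spp1 (-0.0032) in MRL-IRAK4-KD vs IRAK4-KD, where Itgax was also at -0.0081 on log2(CPM + 1). Leaving out 1 library, the ranges that crossed 0 were, for Trem2, -0.2542 to 0.2366 (MRL vs MRL-IRAK4-KD) and -0.435 to 0.0568 (interaction), for Tyrobp -0.2796 to 0.2801 and -0.4681 to 0.0902, for Cst7 -0.0804 to 0.3811 (MRL vs C57BL6/J) and -0.1362 to 0.53 (IRAK4-KD vs C57BL6/J), for Lpl -0.2086 to 0.0333 (MRL vs C57BL6/J), -0.1286 to 0.2363 (MRL-IRAK4-KD vs IRAK4-KD) and -0.3405 to 0.0325 (interaction), for Itgax -0.148 to 0.5006 (IRAK4-KD vs C57BL6/J) and -0.2645 to 0.3805 (MRL-IRAK4-KD vs IRAK4-KD), for Clec7a -0.0424 to 0.4402 (IRAK4-KD vs C57BL6/J), for Axl -0.0368 to 0.1145 (MRL-IRAK4-KD vs IRAK4-KD), and for Spp1 -0.1488 to 0.5558 (MRL vs C57BL6/J), -0.2771 to 0.5023 (MRL-IRAK4-KD vs IRAK4-KD) and -0.3243 to 0.5 (interaction). Ch25h stayed between 2.5105 and 3.7019 and Slco1a4 between 0.7797 and 1.0144 in MRL vs MRL-IRAK4-KD, though their adjusted p did not always pass: with both libraries that stand apart left out it was 0.0821 for Ch25h and 0.0563 for Slco1a4. Depth limited Cst7, Itgax and Clec7a, which had as few as 37, 60 and 121 counts in a library.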

Other observations

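The interaction of lpr and kinase-dead Irak4 had 18 of the 20 genes of TREM2 and TYROBP signalling above 0, with a median log2 value of 0.26 beside -0.0038 for all genes, with 0 genes called by edgeR and 0 at an unadjusted p below 0.05. Without MRL-IRAK4-KD replicate 4 the median was 0.19 beside 0.0181 for all genes, again with 18 of the 20 above 0. The result was singled out after the values were seen, and the same MRL libraries enter the comparisons with MRL-IRAK4-KD and with C57BL6/J.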
